A study of Caenorhabditis elegans with 2 samples.

Results

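The 10 genes pat-2, pat-3, pat-4, pat-6, unc-97, unc-112, unc-95, unc-98, deb-1 and atn-1 of Caenorhabditis elegans encode proteins of the structures that anchor body wall muscle to the cell membrane and the underlying matrix. They are 10 of 19973 protein-coding genes. Binding near them of RNT-1, the RUNX transcription factor of the worm, was mapped by ChIP-seq, in which chromatin is sonicated and the DNA bound to a tagged protein is pulled down and sequenced. The genes were chosen by their known roles and with an earlier result of these data in view, that muscle genes often have a region of RNT-1 binding close by. Regions were selected on the position of their summit, the base of highest signal, which had to lie between 2 kb upstream of the gene start and the 3' end of the gene. The number of these genes with a binding region is therefore a description and carries no test.

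All animals were hermaphrodites of strain OP462, genotype unc-119(tm4063) III; wgIs462, a transgenic line that expresses RNT-1 with a GFP and FLAG tag at its C terminus. They were L1 larvae, starved after bleaching to bring them into step, and were collected whole 6 h later. The precipitating antibody was directed against GFP. There were 2 biological replicates in 1 group, so comparisons are between genes, between regions and between replicates, and there is no second condition. Whole animals of 1 transgenic line were used, so the number of cells in which a region is bound and the binding per cell cannot be told apart, and the tissue in which RNT-1 lay on a muscle gene is not resolved.

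In body wall muscle, the thin filaments are anchored at dense bodies and the thick filaments at M-lines, and both structures rest on integrin receptors in the cell membrane. An integrin is a pair of an alpha and a beta chain that holds the extracellular matrix on the outside and an adaptor complex on the inside. That complex includes integrin-linked kinase, PINCH, parvin and kindlin, and at dense bodies vinculin and alpha-actinin carry the link on to actin. Loss of several of these proteins paralyses the worm embryo at the point where it would elongate, the phenotype for which the pat genes are named, and milder defects leave uncoordinated larvae, the origin of the unc names.

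The authors deposited 1 list of 30000 candidate regions for each replicate and 1 of the same length from the pooled reads. A final list of 5560 peaks was set by the irreproducible discovery rate, a threshold on how alike replicates rank regions. Every one of the 5560 peaks was also in the pooled list, and the weakest had a pooled signal of 71.56 against 71.54 for the strongest region left out. The peaks were thus the pooled regions of highest signal. A place in the list does not show that a region was alike in both replicates. Signal is the value that the authors' peak caller gave to each region, in units not named by the labels, and read depth is unknown. At the 15 peaks described below, the sum of the replicate signals was a median of 1 times the pooled signal, so pooled and replicate values are not on a common scale. The replicate lists reached down to signals of 14.8 and 15.5, so a stretch with no listed region is not a measured 0. Positions below are on the ce11 assembly.

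The DNA under the summits is shown first, because the strongest peaks of several of these genes hold the same short sequence. Each line gives 101 bases centred on a summit, read 5' to 3' on the strand of the gene, for the strongest peak of the 9 genes whose sequence is given here, for the second peak of pat-4 and for the intron peak of atn-1. The second peaks of pat-3, unc-97 and unc-112 are not printed, and their 101 bases hold neither of the sequences marked here. Capitals mark the 6-mer CGTCTC or its reverse complement GAGACG, and at the intron peak of atn-1 the core of the RUNX binding site, TGTGGT.
pat-2 (chrIII:8817856-8817956, plus strand): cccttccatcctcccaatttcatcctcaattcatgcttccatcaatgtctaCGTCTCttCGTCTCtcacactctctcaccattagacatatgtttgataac
pat-3 (chrIII:3914950-3915050, minus strand): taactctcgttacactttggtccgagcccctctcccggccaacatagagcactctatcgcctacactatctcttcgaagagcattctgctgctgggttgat
pat-4 (chrIII:96352-96452, minus strand): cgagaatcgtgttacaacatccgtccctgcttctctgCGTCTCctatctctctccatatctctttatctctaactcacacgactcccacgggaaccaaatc
pat-4, second peak (chrIII:95114-95214, minus strand): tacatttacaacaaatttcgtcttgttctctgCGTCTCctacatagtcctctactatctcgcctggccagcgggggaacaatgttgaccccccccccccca
pat-6 (chrIV:264504-264604, minus strand): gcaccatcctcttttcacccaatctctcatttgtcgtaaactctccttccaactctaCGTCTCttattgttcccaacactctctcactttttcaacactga
unc-97 (chrX:5591900-5592000, plus strand): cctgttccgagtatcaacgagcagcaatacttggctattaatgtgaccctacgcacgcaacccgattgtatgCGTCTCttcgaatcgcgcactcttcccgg
unc-112 (chrV:14697000-14697100, minus strand): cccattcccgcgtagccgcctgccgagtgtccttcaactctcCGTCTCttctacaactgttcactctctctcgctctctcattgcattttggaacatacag
unc-98 (chrX:7573749-7573849, minus strand): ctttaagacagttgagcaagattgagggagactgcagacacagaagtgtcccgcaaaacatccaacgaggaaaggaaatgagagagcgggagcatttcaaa
deb-1 (chrIV:7095730-7095830, minus strand): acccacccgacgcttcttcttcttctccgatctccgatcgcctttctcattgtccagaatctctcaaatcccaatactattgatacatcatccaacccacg
atn-1 (chrV:12477269-12477369, plus strand): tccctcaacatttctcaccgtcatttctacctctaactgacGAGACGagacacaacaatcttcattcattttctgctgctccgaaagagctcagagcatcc
atn-1, intron peak (chrV:12479170-12479270, plus strand): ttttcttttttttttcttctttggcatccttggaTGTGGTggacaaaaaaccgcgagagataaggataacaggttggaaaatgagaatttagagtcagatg

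All 10 genes had a peak, and in each the strongest peak lay upstream of the gene. Over all protein-coding genes, 24.4% had a peak in the same kind of window. There were 15 peaks in all, 13 of them upstream and 2 in introns. The upstream share was 86.7%, against 70.7% over all protein-coding genes, with a peak counted once for each gene whose window held it. Upstream peaks were present at all 10 genes, against 20.2% of protein-coding genes. A pair of peaks was found at 5 genes (pat-3, pat-4, unc-97, unc-112 and atn-1), against 5.42% of protein-coding genes with 2 or more. The 10 genes have a median length of 5009 bp, against 2027 bp for all protein-coding genes. A longer gene has a longer window, of which the upstream part has the same length for every gene. The part of gene length in these counts was not tested.

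**Figure D1:**
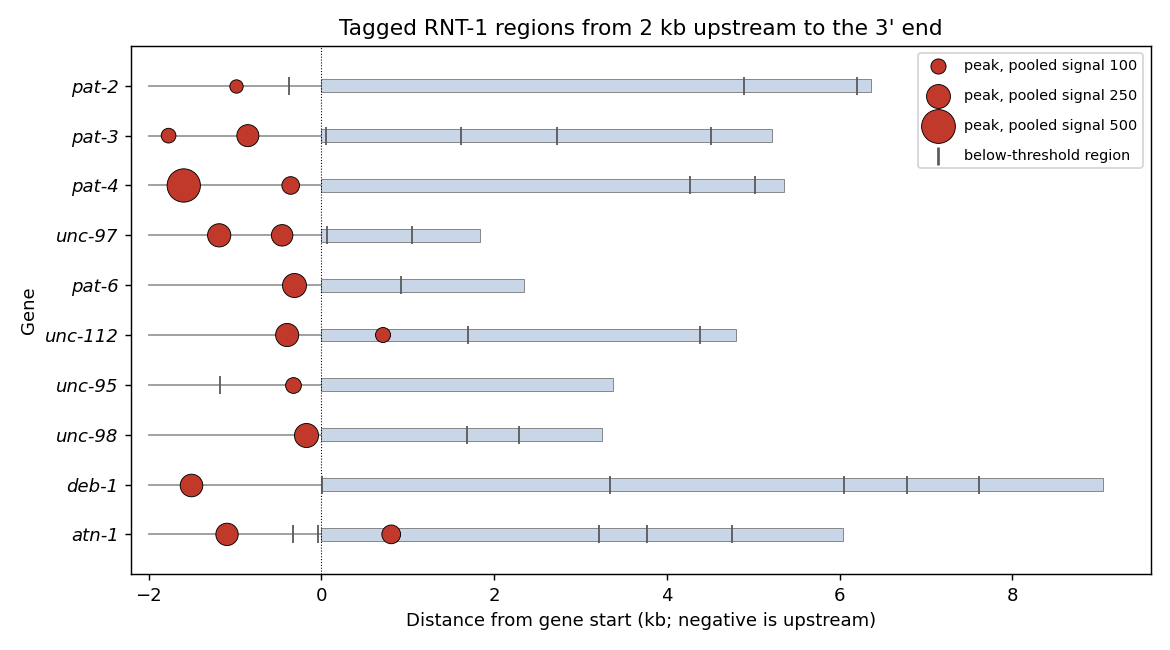
Position of all peaks and below-threshold regions at the 10 genes, by distance of the summit from the gene start in kb, with the gene drawn as a bar to scale. Red circles are peaks with an area in proportion to pooled signal, and grey ticks are pooled regions that did not pass the authors' threshold. Of 15 peaks, 13 lie left of the gene start, and the largest circle is the distal peak of pat-4.

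The integrin chains differed in their peaks inside the window. The gene pat-2 (WBGene00003929, chrIII:8818899-8825266, plus strand) encodes the integrin alpha chain of muscle and had a single peak, the weakest of all 15, at chrIII:8817798-8818013 with its summit 993 bp upstream. Its pooled signal was 78.1, rank 5194 of 5560, and the replicates gave 42.8 and 43.1 (43.0 ± 0.195, SD, n = 2). Both replicates therefore gave this weak peak nearly the same signal. A second pat-2 region, 374 bp upstream, had a pooled signal of 65.2, just under the threshold of the peak list, with 31.3 in replicate 1 and 27.0 in replicate 2. Outside the window of pat-2, 3023 bp upstream, lay a further peak with a pooled signal of 196, stronger than the peak inside it.

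The gene pat-3 (WBGene00003930, chrIII:3908931-3914149, minus strand) encodes the beta chain that pairs with PAT-2. Its stronger peak, at chrIII:3914892-3915107, had a summit 851 bp upstream, a pooled signal of 213 and replicate values of 102 and 111 (106 ± 6.24, SD, n = 2). Its weaker peak, at chrIII:3915810-3916025 and 1769 bp upstream, had a pooled signal of 94.8 and replicate values of 48.4 and 58.2 (53.3 ± 6.94). Replicate ranges of these 2 peaks did not overlap, and both replicates of the stronger pat-3 peak were above both replicates at pat-2. The weaker pat-3 peak lies between pat-3 and the divergent gene ccdc-47, 1049 bp from the start of the latter and so nearer to it than to pat-3. Outside the window of pat-3, 2677 bp upstream, lay a further peak with a pooled signal of 375, stronger than both peaks inside it. The start of ccdc-47 is 2818 bp upstream of that of pat-3.

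The strongest peak of all 15 was at pat-4 (WBGene00003931, chrIII:89453-94809, minus strand), the gene of integrin-linked kinase. It covered chrIII:96295-96489 with its summit 1593 bp upstream, had a pooled signal of 486 and ranked 706 of 5560, in the top 12.7% of all peaks. The replicates gave 249 and 240 (244 ± 6.91, SD, n = 2). This summit is nearer to the start of C29F9.8, a coding gene of 336 bp on the same strand, at 716 bp, but it lies 381 bp past the 3' end of that gene, between it and pat-4. The second peak of pat-4, at chrIII:95056-95271 and 355 bp upstream, had a pooled signal of 136 and replicate values of 32 and 96 (64 ± 45.3). Replicate 2 was 3.0 times replicate 1 there, the largest difference of the 15 peaks. The 101 bases shown for this summit hold, near their 3' end, a run of 13 C bases on the strand of the gene. A run of C or G at least as long was present in 0.054% of the windows of all peaks, and its part in the replicate difference was not tested.

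The partners of this kinase, PINCH and parvin, had peaks of similar strength. The gene unc-97 (WBGene00006826, chrX:5593133-5594965, plus strand) encodes PINCH, a protein made of LIM domains, and is the shortest of the 10 genes at 1833 bp. Its distal peak at chrX:5591842-5592057, 1183 bp upstream, had a pooled signal of 236 and replicate values of 107 and 141 (124 ± 24.5, SD, n = 2). Its proximal peak at chrX:5592571-5592786, 454 bp upstream, had 202, with 121 and 78.3 (99.7 ± 30.3). The replicates thus put the unc-97 peaks in opposite order, the proximal peak being the higher in replicate 1 and the distal in replicate 2. At the distal peak the replicate summits lay 91 bp apart, the farthest of the 15.

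The gene pat-6 (WBGene00003932, chrIV:261886-264232, minus strand) encodes parvin, also called actopaxin, which binds the kinase. Its single peak at chrIV:264446-264661, 322 bp upstream, had a pooled signal of 252. Replicate 1 gave 157 and replicate 2 gave 107 (132 ± 34.9, SD, n = 2), so replicate 1 was 1.46 times replicate 2.

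Kindlin, which binds the tail of the integrin beta chain, is encoded by unc-112 (WBGene00006836, chrV:14691855-14696654, minus strand). The stronger of its peaks lay at chrV:14696946-14697118, 396 bp upstream, with a pooled signal of 234 and replicate values of 121.9 and 111.9 (117 ± 7.06, SD, n = 2). The weaker lay inside the gene, in intron 2 of 5, 714 bp past the start at chrV:14695832-14696047. Its pooled signal was 98.8, and the replicates gave 56.5 and 37.6 (47.1 ± 13.3). In both replicates the upstream peak of unc-112 was the higher, and their ranges did not overlap.

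The genes unc-95 and unc-98 encode proteins found at attachment sites and also reported in muscle nuclei, a LIM domain protein and a zinc finger protein. At unc-95 (WBGene00006824, chrI:14381360-14384737, minus strand) there was a single peak, at chrI:14384962-14385177 and 333 bp upstream, with a pooled signal of 109. The replicates gave 64.3 and 44.4 (54.3 ± 14.1, SD, n = 2), so only the pat-2 peak was lower among the strongest peaks of the genes. At unc-98 (WBGene00006827, chrX:7570374-7573619, minus strand) the single peak at chrX:7573745-7573850 was the closest to its gene start, 180 bp upstream. It had a pooled signal of 253 and replicate values of 133 and 114 (123 ± 13.6), and the replicate summits were 1 bp apart.

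The unc-98 peak sits where genes overlap. It lies in an intron of pcyt-1, which runs on the opposite strand, and 171 bp upstream of F08C6.18, a coding gene of 39 bp on the same strand that overlaps unc-98 and starts 9 bp upstream of it. Under a rule that gives each summit only to the nearest coding start, the peak goes to F08C6.18 and unc-98 has none. Whether an entry of 39 bp is a gene apart from unc-98 was not tested, and position alone does not tell these genes apart.

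The genes of the actin side had upstream peaks of nearly equal pooled signal. Vinculin is encoded by deb-1 (WBGene00000942, chrIV:7085215-7094266, minus strand), the longest of the 10 genes at 9052 bp. Its single peak was the narrowest of the 15, 89 bp wide at chrIV:7095720-7095808, and its summit was 1514 bp upstream. The pooled signal was 224, and the replicates gave 113 and 113 (113 ± 0.302, SD, n = 2), the lowest coefficient of variation of the 15 peaks at 0.268%. No peak lay within the 9052 bp of the gene itself, although 5 regions below the threshold did. A further peak lay just outside the window of deb-1, 2044 bp upstream, with a pooled signal of 186.

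Alpha-actinin is encoded by atn-1 (WBGene00000228, chrV:12478411-12484449, plus strand). Its upstream peak at chrV:12477211-12477426, 1092 bp from the start, had a pooled signal of 219 and replicate values of 105 and 103 (104 ± 1.27, SD, n = 2). Its other peak, at chrV:12479112-12479327, lay 809 bp past the gene start and 610 bp from the nearest annotated transcript start of atn-1. In some of the 4 transcripts its summit is in intron 1 of 8, which is 1201 bp long, and in the others it is in no intron. This intron peak had a pooled signal of 154 and replicate values of 94.1 and 83.8 (88.9 ± 7.29). In both replicates the upstream peak was the higher.

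Ordered by the mean of the replicates at the strongest peak in the window, pat-4 stood first. It was followed by pat-6, unc-97, unc-98, unc-112, deb-1, pat-3, atn-1, unc-95 and pat-2. The replicate ranges of pat-4 and pat-6 did not overlap, nor did those of deb-1 and pat-3, of atn-1 and unc-95, or of unc-95 and pat-2. Neighbours from pat-6 down to deb-1 overlapped, as did pat-3 and atn-1. Genes that are not neighbours can overlap too. The ranges of pat-6 (107.5 to 156.9) and unc-97 (106.6 to 141.3) overlapped that of pat-3 (101.7 to 110.5). The order from pat-6 down to deb-1 is therefore not fully resolved, nor is that of pat-3 against pat-6, unc-97 or atn-1. With 2 values each, the ranges of unc-98 (113.8 to 133.0), unc-112 (111.9 to 121.9) and deb-1 (112.6 to 113.1) lay above that of pat-3. The pooled signal of the strongest peak ran from 213 to 253 at 7 of the genes, a 1.19-fold range, while over all 10 genes it ran 6.22-fold. The median over the 10 genes was 228.8, against 234.8 over all protein-coding genes with a peak.

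**Figure D2:**
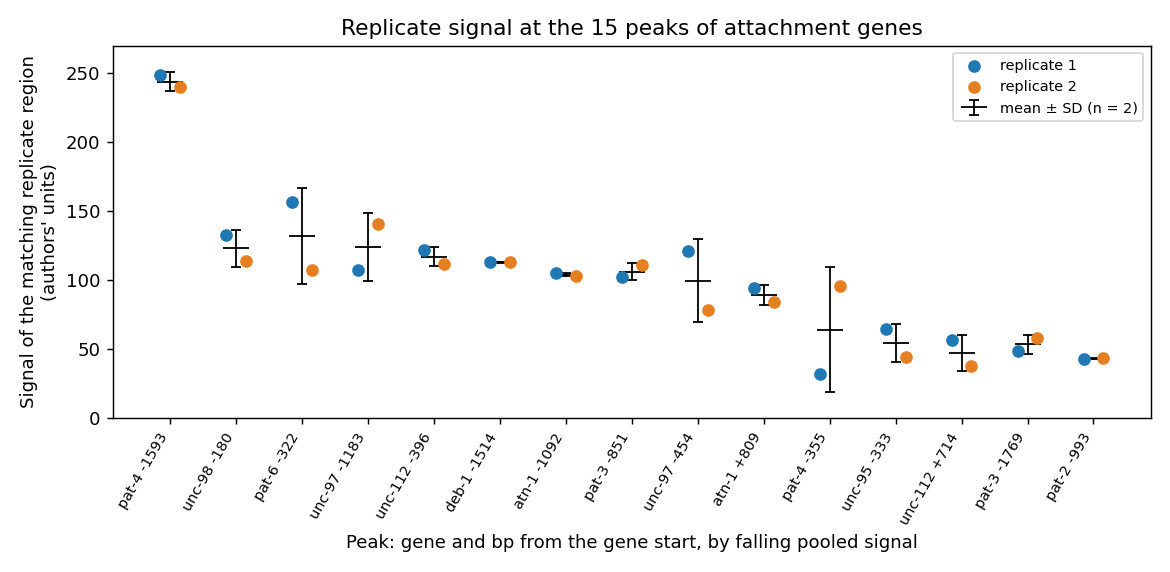
Signal of the matching region in each replicate at the 15 peaks, in the authors' units, with the mean ± SD (n = 2) in black. The pat-4 peak 1593 bp upstream is highest in both replicates at 249 and 240, and the pat-4 peak 355 bp upstream has the widest spread, 32 against 96.

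All 15 peaks had a matching region in both replicates, meaning that the pooled summit lay inside a region of each, against 95% of the 5560 peaks. Among them, 13 were also within the 5560 strongest regions of each replicate, against 76.7% of all peaks. The exceptions were the proximal peak of pat-4, at rank 7977 in replicate 1 and 2423 in replicate 2, and the intron peak of unc-112, at rank 4395 and 5654. The median coefficient of variation was 11% over the 15 peaks and 15.6% over the 5282 peaks matched in both. Replicate 1 was the higher at 10 peaks and replicate 2 at 5, with a median ratio of replicate 2 to replicate 1 of 0.961, against 0.895 over all matched peaks. Only the proximal pat-4 peak differed more than 2-fold, as did 8.01% of matched peaks, and 1.15% of them differed at least as much as it did. Replicate summits lay a median of 12 bp apart at the 15 peaks and 13 bp apart over all.

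**Figure D3:**
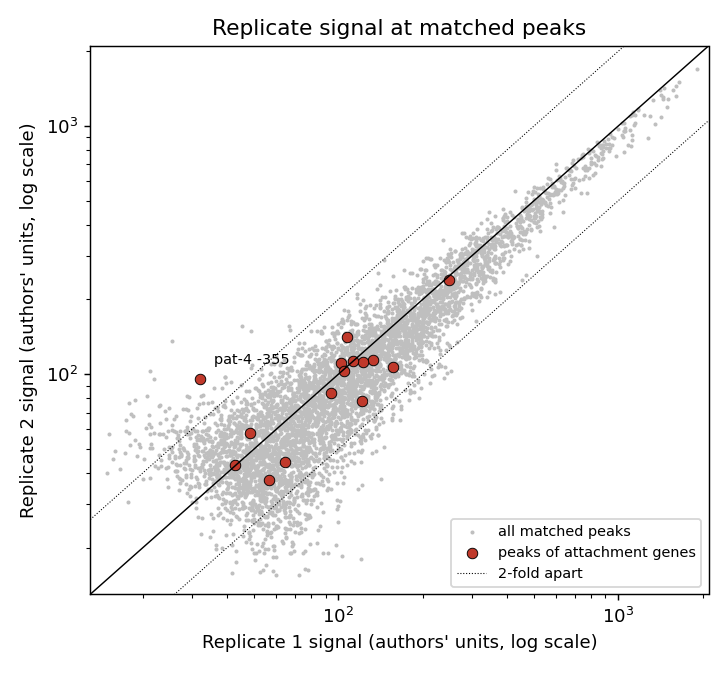
Signal of the matched regions in replicate 1 and replicate 2, both on log scales, for 5282 peaks (grey) and the 15 peaks of the attachment genes (red). The solid line marks equal signal and the dotted lines a 2-fold difference; 14 red points lie between the dotted lines, and the proximal pat-4 peak lies above them.

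The peaks of these genes were spread over the whole 2 kb upstream. Of the 13 upstream summits, 6 lay within 500 bp of the gene start (those of pat-6, unc-95, unc-98 and unc-112 and the proximal ones of pat-4 and unc-97), and 5 lay over 1 kb away, at pat-3, pat-4, unc-97, deb-1 and atn-1. The share within 500 bp was 46.2%, against 52.9% for all placements of peaks upstream of protein-coding genes, and the median distance was 851 bp against 444 bp. The 20 kb upstream of the 10 genes held 0.65 peaks per kb, against 0.116 per kb upstream of all protein-coding genes. Their 47.6 kb of gene body held 0.042 per kb, against 0.0297 per kb for all. No test was made of these differences, since the genes were picked with peaks known.

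**Figure D4:**
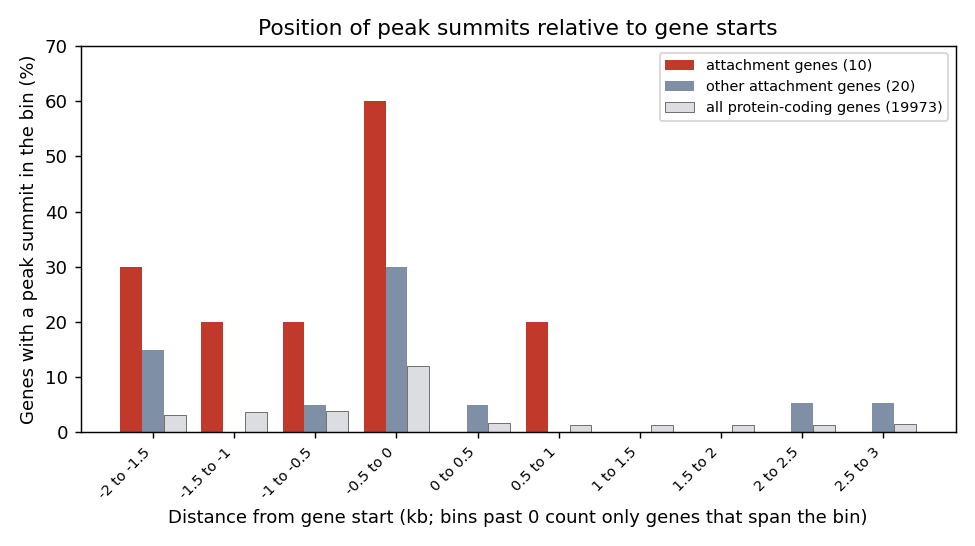
Percentage of genes with a peak summit in each 500 bp bin from 2 kb upstream to 3 kb past the gene start, for the 10 attachment genes, 20 other attachment genes and all protein-coding genes; past the start, a bin counts only genes that span it. In the bin next to the start the bars stand at 60, 30 and 12.1%, and the 10 genes have no peak in the first 500 bp of the gene.

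A list of 20 other genes of muscle attachment sites was counted in the same way, and 15 of them had a peak, 10 of them upstream. The strongest peaks were at pix-1, which encodes an exchange factor for small GTPases (459; replicates 248 and 219), the tensin gene tns-1 (369; 204 and 172), git-1, which encodes a partner of PIX-1 (322; 161 and 166), and unc-89, the gene of the M-line protein obscurin (310; 165 and 148). The tns-1 and unc-89 peaks lay inside the gene, 7965 and 11173 bp past the start, and the git-1 summit was nearest to the start of another gene, mboa-7. The 5 without a peak were ina-1, which encodes the other integrin alpha chain of the worm, the talin gene tln-1, the paxillin gene pxl-1, cpna-1, which encodes a copine domain protein, and sorb-1. Regions below the threshold reached 65.8 at pxl-1, 51.2 at tln-1, 50.2 at cpna-1 and 44.2 at ina-1, and sorb-1 had no region of the pooled list in its window.

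Peaks of this second list lay in different parts of the gene. Of its 37 peaks, 27 were in gene bodies. Upstream peaks were 27% of them, against 70.7% of placements over all protein-coding genes. The strongest peak lay in the body at 9 of the 15 genes with a peak, against 0 of the 10 dense body genes. That share over all protein-coding genes was not counted. The genes of the second list are longer, with a median of 15176 bp, and their bodies held 0.075 peaks per kb. Upstream they held 0.25 peaks per kb, above the 0.116 of all protein-coding genes and below the 0.65 of the 10 dense body genes. The strongest peaks had a median pooled signal of 232, next to 228.8 at the 10 dense body genes.

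Below the threshold, the windows of the 10 genes held 27 further pooled regions with signals from 26.3 to 65.2 and a median of 39.2, against 34.7 over all 24440 such regions. Of these 27 regions, 18 lay in coding exons, 4 in introns, 1 in a 3' UTR and 4 upstream, whereas most of the 15 peaks lay upstream. The windows hold 47.6 kb of gene body and 20 kb of upstream sequence. How all below-threshold regions divide among such places was not counted. Both replicates had a matching region at 8 of them, or 29.6%, against 23% of all below-threshold regions. Among those 8 were the pat-2 region described above, 2 upstream regions of atn-1 (pooled 51.3 and 46.4), and a region in a coding exon of pat-3, 54 bp past the start (42.7; replicates 24.3 and 19.8). At unc-97 a region 65 bp past the start had 38.3 in replicate 2 and no match in replicate 1. Outside the 15 peaks, no region at these genes exceeded 32.2 in replicate 1 or 38.3 in replicate 2. Some peaks were themselves under these values: the proximal peak of pat-4 in replicate 1, at 32.0, and the intron peak of unc-112 in replicate 2, at 37.6.

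The core of the RUNX binding site was uncommon in these peaks, as it was over all peaks. Within 50 bp of the summit, TGTGGT or TGCGGT on either strand was found at 1 of the 15, the intron peak of atn-1, where TGTGGT was centred 13.5 bp from the summit. This is 6.67% of the 15 peaks, against 10.1% of all peaks and 7.06% of the below-threshold regions. Over the whole width of the regions the count was again 1 of 15, against 15.8% of all peaks. The E-box CAGCTG, a form of the site bound by the muscle factor HLH-1, was at 0 of the 15 and at 5.97% of all peaks. The absence of these letters from 101 bases says nothing about which factors are bound there.

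Another sequence was shared by several of these genes. The 6-mer CGTCTC, searched on both strands, was within 50 bp of 8 of the 15 summits, at 7 genes: pat-2, pat-4 (both peaks), pat-6, unc-97, unc-112, unc-95 and atn-1. It was found at 18.2% of all peaks, at 19.3% of peaks that lie in the 2 kb upstream of a coding gene, and at 5.27% of below-threshold regions. All 8 were upstream peaks, and in 7 genes it was the strongest peak that held it. Of the 9 copies, 8 read CGTCTC on the strand of the gene. At peaks that lie upstream of a single coding gene, which leaves out pat-6 and unc-112, it was 6 of 7 copies, against 61.4% of all 479 such copies. The peaks of pat-4 share more than the 6-mer, which was noticed in the printed sequences and then measured. Their windows have a run of 16 identical bases around CGTCTC on the strand of the gene, the longest shared by any of the 105 pairs of the 15 windows, and these were the only 2 of the 5560 peak windows that held it. The next longest shared run was 12 bases, and one of the pairs with it was pat-2 and pat-6, again around CGTCTC. The upstream peak of unc-112 shared runs of the same length with the proximal peak of unc-97 and with unc-98, both without CGTCTC. The median over pairs was 8. The nearest copy was centred 3.5 bp from the summit at pat-2, 5.5 at unc-112, 6.5 at atn-1, 9.5 at pat-6, and 10.5 and 15.5 at the peaks of pat-4, with 24.5 at unc-97 and 39.5 at unc-95.

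Runs of alternating pyrimidines are also visible in the printed sequences. The 6-mer GAGAGA, or TCTCTC on the other strand, was within 50 bp of 9 of the 15 summits, against 29.8% of all peaks. Either it or CGTCTC was held by 12 of the 15. The share of all peaks with either was not counted, so that number has no background to set it against. The 3 without either were the stronger peak of pat-3, the proximal peak of unc-97 and the intron peak of unc-112. Of all 2080 6-mers with strands joined, GAGAGA was held by the most of the 15. CGTCTC and AAGAGA followed with 8 each, the last being found at 25.3% of all peaks. Next came AATGAG and ATGAGA with 7 each, though they were found at only 9.86% and 11.7% of all peaks. CGTCTC was therefore not the 6-mer that stood farthest above its share over all peaks. These 6-mers were singled out after these counts were seen, so the counts are a description of the 15 sequences and not a test, and the GC content of the windows, a median of 46.5%, was the same as over all peaks.

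Some of the 15 peaks lie in the windows of other genes as well. This holds for 5 of them: both peaks of pat-3 (ccdc-47), and those of pat-6 (T21D12.12, 1894 bp away), unc-112 (set-5, 1916 bp away, the upstream peak) and unc-98. The neighbours ccdc-47, T21D12.12 and set-5 run away from the dense body gene on the other strand, so that these peaks lie between divergent starts. The other 10 peaks lie in the window of no other coding gene, those at pat-2, pat-4, unc-97, unc-95, deb-1 and atn-1 among them. Of all peaks in at least 1 coding window, 33.5% were in 2 or more.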

How the data were processed

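RNT-1 tagged with GFP was precipitated from whole L1 larvae in 2 replicates, which the labels put in 1 group. Each list the authors deposited gives a signal and a −log10 q value per region; the 4 lists on ce11 were used, and the 4 on ce10 were not used here. Aligner and peak caller: not given in the sources used here. No control library was analysed here. The deposited −log10 q values were from 3.17 to 3.97 at the 15 peaks. Signal was used as deposited, and depth is unknown, so no counting interval was computed; the number of replicates limits the precision.

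Genes came from Ensembl release 115 (WBcel235, the sequence of ce11) and bases from the RefSeq copy of that assembly, with chromosome lengths checked against the region ends. A gene's window ran from 2 kb upstream of its start to its 3' end. A replicate region matched a peak when the pooled summit lay inside it, and the one with the nearest summit was taken. SD is over 2 replicates. Motifs were searched on both strands. Rules were tested on planted regions. Python 3.11.15, pandas 2.3.3, numpy 2.4.6 and matplotlib 3.10.9 were used.

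The members, the list of other attachment genes and the tests were chosen with earlier results of these data known. All 10 members were named; of the other list, the 4 genes with the strongest peaks and those without a peak; and neighbours where a summit lay nearer to their start. The genes pcyt-1, set-5 and T21D12.12 fall outside this rule and were named after their positions were seen. No enrichment test was run. Alternatives were other windows, assignment to the nearest coding start, the stronger 2780 peaks, each replicate alone, other matching rules, and other motif windows and forms.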

Additional observations from a re-analysis of the deposited data

How the results depend on the processing

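For the counts and ratios given above, 33 alternative values stayed within 1.5 times the reported value or within the spread between replicates, and 2 did not. The number of genes with a peak was 10 with the gene body left out (20.2% of all protein-coding genes), with 5 kb upstream (33.4%) and with the strongest regions of replicate 1 (24.6%) or replicate 2 (24.1%) alone. It was 9 with 1 kb upstream (deb-1 lost; 20.1% of all), 9 with each summit given to its nearest coding start (unc-98 lost; 17.2%) and 8 in the stronger 2780 peaks (pat-2 and unc-95 lost; 15.7%). In those stronger peaks the 15 peaks fell to 9. The count of peaks also depended on the window: it was 10 with 1 kb upstream, 20 with 5 kb upstream and 13 with the gene body left out. It was 12 with each summit given to its nearest coding start. The 10 peaks with 1 kb upstream are just at the limit of 1.5 times. The longer form TGTGGTT was at 0 of the 15 peaks, in place of 1, and at 0.935% of all peaks. The strongest regions of replicate 1 gave 14 peaks, without the proximal one of pat-4. Those of replicate 2 gave 15, but without the intron peak of unc-112 and with the unc-97 region 65 bp past the start. In replicate 1 alone the strongest peak of unc-97 was the one 454 bp upstream, while at the other 9 genes both replicates had the same strongest peak as the pooled signal. CGTCTC, an alternative set chosen after seeing the data, was at 6 of 15 peaks within 25 bp of the summit, against 10.8% of all peaks, and at 8 of 15 over the whole region, against 24.3%. No paired analysis was possible because there is 1 group. Both replicate summits lay within 50 bp of the pooled summit at 13 of the 15 peaks. Depth is unknown, so weak regions in 1 replicate cannot be told from sampling.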
